A study of Caenorhabditis elegans with 2 samples.

Results

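The proteasome genes were the 33 protein-coding genes of the Ensembl annotation of build WBcel235 whose symbols start with pas-, pbs-, rpt- or rpn-, out of 19985 protein-coding genes in all. The core particle accounted for 14 of them (7 pas and 7 pbs genes) and the regulatory particle for 19 (6 rpt and 13 rpn genes). Binding of D1046.2 was measured by ChIP-seq, in which DNA bound to a protein is pulled down, here with an antibody to GFP, and sequenced, in whole Caenorhabditis elegans larvae of the L4 stage, aged 50 hours and synchronised by starving L1 larvae after bleaching. The single group had 2 biological replicates of strain OP397, which carries the integrated transgene wgIs397: D1046.2 with a TY1 EGFP 3xFLAG tag on the genomic clone 91F09, with unc-119(+) as the rescue marker in an unc-119(tm4063) background that all worms shared. Worms that lack the transgene were not analysed here, the labels name no deletion of the worm's own D1046.2, and whole animals mix all tissues, so fewer cells with binding and weaker binding per cell cannot be told apart.

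The proteasome degrades proteins that carry a chain of ubiquitin. Its core particle is a barrel with outer alpha rings, built from the pas products, and inner beta rings, built from the pbs products, of which some hold the proteolytic sites. The regulatory particle caps the barrel: its base holds the ATPases encoded by the rpt genes, which unfold substrates, and the rpn products make up the rest of the base and the lid, which bind ubiquitin and cleave it off. In yeast, worms and mammals the subunit genes can be induced together when proteasome activity is lost, in worms through the transcription factor SKN-1A.

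The promoter of a gene was taken as the 500 bp before and the first 100 bp after each of its annotated 5' ends, and a peak was assigned to the gene when its summit, the base of highest signal, lay there. In worms many annotated 5' ends are sites of trans-splicing rather than of transcription start. The conservative list, which combines both replicates, held 1546 peaks, against 619 for replicate 1 alone and 463 for replicate 2 alone. The files hold peaks and not reads, so read depth is unknown. Signal is the authors' own deposited value per region. Its scale is not stated, so regions are compared within a list only, and values from the lists of both replicates are given side by side.

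A promoter peak of D1046.2 was found at 1 gene of each particle: rpn-5, which encodes a lid subunit, and pas-4, which encodes an alpha ring subunit. Both genes had their peak in the conservative list, in the optimal list and in the list of each replicate alone. Over all 19985 protein-coding genes, 468 had a conservative promoter peak, 2.34%, against 2 of 33 proteasome genes, 6.06%. Each gene makes up 3.03% of the members, and no test of the difference was made.

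The rpn-5 peak spanned chrII:4698379-4698543 (ce11), 165 bp wide, and its summit fell in intergenic sequence 39 bp upstream of rpn-5. Its signal was 397 in the combined list, 196.5 in replicate 1 and 201.0 in replicate 2, at ranks 37 of 1546, 40 of 619 and 35 of 463. All 3 lists thus held it among their 50 strongest peaks, and the replicate summits lay 39 bp and 48 bp upstream of the gene. The same summit lay 255 bp upstream of scc-1, the gene of a cohesin subunit that holds sister chromatids together, which is transcribed away from rpn-5. The whole stretch between both genes is shown, from the RefSeq sequence of WBcel235 on the strand of rpn-5, chrII:4698428-4698720, minus strand, with the summit at base 255 of 293. Capitals mark the 14 letters that the pas-4 peak also holds.

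rpn-5: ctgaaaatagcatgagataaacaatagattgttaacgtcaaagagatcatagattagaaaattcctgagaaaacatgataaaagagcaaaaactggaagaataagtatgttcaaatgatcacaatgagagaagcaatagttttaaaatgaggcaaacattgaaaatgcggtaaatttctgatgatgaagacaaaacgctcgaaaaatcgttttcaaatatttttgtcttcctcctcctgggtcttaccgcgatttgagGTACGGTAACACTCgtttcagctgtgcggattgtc

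For comparison, rpn-11 and rpn-3 are shown as the regulatory members with the strongest intergenic candidates below the threshold of the list. The stretch upstream of rpn-11 is the whole gap to K07D4.2, chrII:4044547-4044770, minus strand, 224 bases with the candidate's summit at base 135. The stretch upstream of rpn-3 is part of its 443 bp gap to hsp-110, chrIII:8446938-8447237, plus strand, 300 bases with the summit at base 151. This gap also holds the noncoding gene C30C11.14. Capitals mark the 10 letters closest, on either strand, to ACGGTAACAC, the central part of the word capitalised in rpn-5, and both stretches differ from it at 3 letters.

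rpn-11: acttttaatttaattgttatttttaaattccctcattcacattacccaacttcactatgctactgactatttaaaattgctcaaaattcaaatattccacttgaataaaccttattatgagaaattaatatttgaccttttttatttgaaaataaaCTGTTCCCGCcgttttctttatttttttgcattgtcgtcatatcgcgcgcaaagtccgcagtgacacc

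rpn-3: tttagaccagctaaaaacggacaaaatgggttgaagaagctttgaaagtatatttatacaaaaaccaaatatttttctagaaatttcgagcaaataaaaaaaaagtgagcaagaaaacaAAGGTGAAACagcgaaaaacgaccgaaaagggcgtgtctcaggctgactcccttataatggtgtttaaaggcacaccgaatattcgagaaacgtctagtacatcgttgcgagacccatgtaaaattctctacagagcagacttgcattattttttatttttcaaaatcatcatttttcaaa

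In rpn-5 the capitals lie at bases 259 to 272, their centre 11 bp from the summit. The closest letters lie at bases 157 to 166 in rpn-11 and at bases 120 to 129 in rpn-3. The word was defined as letters that the pas-4 and rpn-5 peaks share, so its exact copy in rpn-5 was fixed in advance. Neither comparison stretch holds a copy with fewer than 3 mismatches, and this contrast is a description and not a test. Within 150 bp of the summit, which at rpn-11 reaches past the stretch shown, the fewest mismatches were 2 at rpn-11 and 3 at rpn-3.

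The peak at pas-4 was slightly stronger. Its signal was 432 in the combined list, 221 in replicate 1 and 205 in replicate 2, at ranks 31 of 1546, 34 of 619 and 33 of 463. It was 182 bp wide, on chromosome I from 8728531 to 8728712 (ce11), and its summit fell in intergenic sequence 120 bp upstream of pas-4 and 157 bp upstream of rpb-3, which encodes a subunit of RNA polymerase II and is transcribed in the opposite direction. Like rpn-5, pas-4 therefore shares its peak with a divergent neighbour, and the peak cannot be assigned to either gene of the pair from its position. Of the 397 conservative summits in a promoter, 88 (22.2%) lay in the promoters of at least 2 genes. No tRNA, snoRNA, snRNA or microRNA gene was annotated within 500 bp of either summit.

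**Figure D1:**
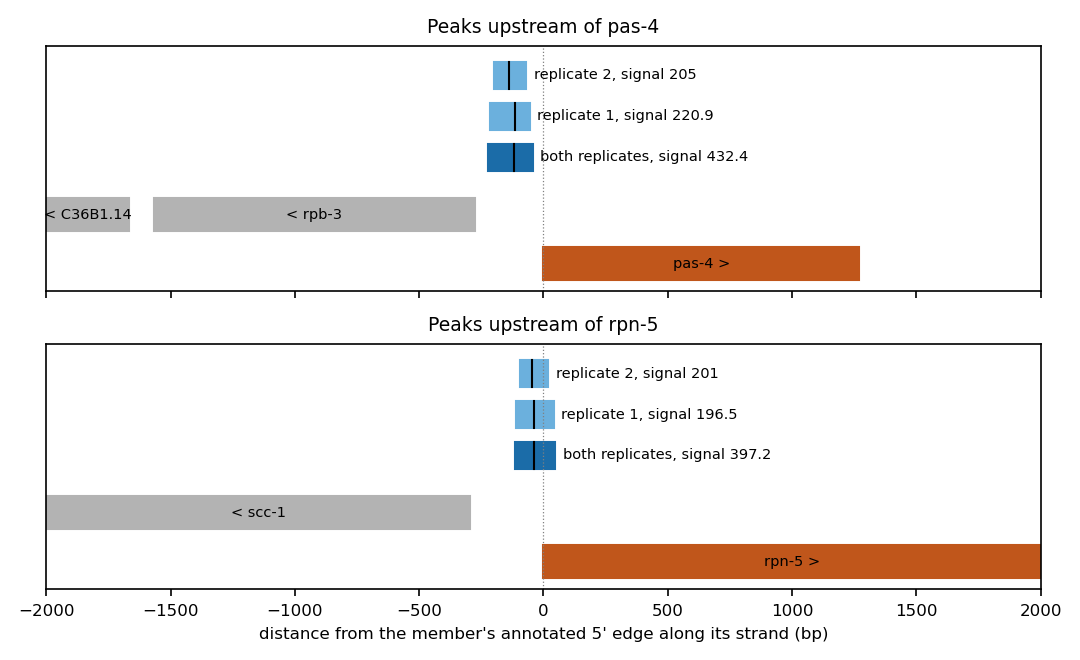
Peaks upstream of pas-4 and rpn-5, plotted by distance (bp) from the annotated 5' edge of the member along its strand, with genes as bars (orange, the member; grey, its neighbours) and peaks of the combined list and of each replicate above them, with black lines at the summits. In both panels the 3 peaks overlie one another between divergent genes, with summits 120 bp (pas-4) and 39 bp (rpn-5) upstream in the combined list.

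The count was 2 genes under most ways of calling a peak, while the background changed. It was 2 with the optimal list (background 2.51% of all genes), with replicate 1 alone (1.45%), with replicate 2 alone (0.976%), with 1000 bp upstream (3.48%), with 250 bp upstream (1.40%) and with the stronger 50% of the peaks (1.64%), and in each case the genes were pas-4 and rpn-5. Many worm genes lie in operons and are transcribed from the promoter of the first gene, so members that follow a same-strand gene within 500 bp were also counted by the promoter of the first gene of that run, which again gave 2 (3.03%). With any overlap of a peak and the promoter, pbs-5 was added and the count was 3 (2.96%). Its peak, on chromosome I from 14720169 to 14720464 with a signal of 104 and rank 604, had its summit inside pbs-5, 160 bp downstream of the 5' end. Of these settings, 1000 bp upstream, any overlap and the first gene of a run could only add genes. Summits 120 and 39 bp upstream, at ranks 31 and 37 of 1546, also fixed the calls of pas-4 and rpn-5 with 250 bp and with the stronger 50%.

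The pas-4 and rpn-5 peaks differed from most others in shape and base composition. A width of 296 bp was recorded for 95.5% of the conservative peaks, while these were 182 and 165 bp wide, and the 50 strongest peaks had a median width of 218 bp. Within 150 bp of the summit, 30.2% of bases were G or C at pas-4 and 31.6% at rpn-5, against a median of 44.5% over all conservative peaks and 38.5% over the 50 strongest. Lower values than that of pas-4 were found at 0.841% of conservative peaks, and lower ones than that of rpn-5 at 1.75%. The 300 bases upstream of all 33 members had a median GC content of 32.3% (range 25.7% to 39%), close to the 33.3% of 19984 protein-coding genes.

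Both peaks held a common word of 14 letters, in the same orientation relative to the member, whose central 10 letters are ACGGTAACAC, read as GTGTTACCGT on the other strand. The word was found by comparing these peaks, so its presence in them is a description and not a test. The centre of the word lay 1 bp from the summit at pas-4 and 11 bp from it at rpn-5. Upstream of the members, within 300 bases, the 10 letters occurred at pas-4 and rpn-5 alone: 0 of the other members had a copy with 1 mismatch, 5 had one with 2 mismatches and 26 had none closer than 3. Over all genes the 10 letters occurred in 27 of 19984 such windows, 0.135%, those of pas-4, rpn-5 and their neighbours rpb-3 and scc-1 included, and with up to 1 mismatch in 1.09%.

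The same word was found at other strong peaks. On either strand within 150 bp of the summit it occurred in 16 of the 50 strongest conservative peaks, which include those of pas-4 and rpn-5, and so in 14 of the 48 others, 29.2%. It occurred in 1 of the next 50, in 2 of ranks 101 to 200, in 1 of ranks 201 to 400 and in 0 of the remaining 1146. With up to 1 mismatch it occurred in 27 of the 48 others, 56.2%, and in 0.873% of the peaks ranked from 401 to 1546. Of the 105375 regions of the ranked list that are not conservative peaks, 0.0313% held it. The centre of the word lay within 50 bp of the summit in 17 of the 18 other conservative peaks that held it. Of these 18 peaks, 9 lay in the promoter of a gene for a protein of the cytosolic ribosome, among them rpl-11.2, rps-17, rpl-21 and rpl-19. Those at rpl-21, rps-23, rpl-1, rps-13 and rpl-34 also lay in the promoter of a gene of another kind, and cannot be assigned to either gene. The share of ribosomal protein promoters among equally strong peaks without the word was not counted. Across the 6 nuclear chromosomes the word occurred at 112 places besides those at pas-4 and rpn-5. Of these, 18 (16.1%) lay within 150 bp of a conservative summit, so most copies had no conservative peak. Of all 114 places, pas-4 and rpn-5 included, 52 lay within 150 bp of a summit of the ranked list. That list holds 106921 regions, and the share for other places in the genome was not counted.

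**Figure D2:**
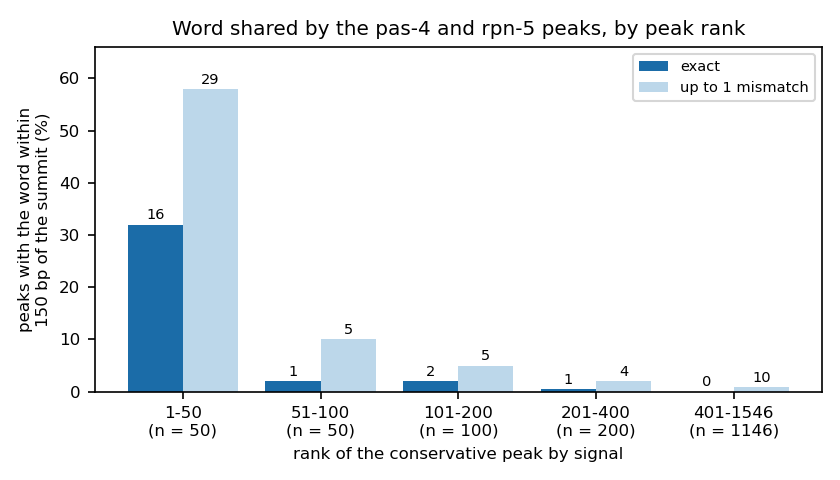
Share of conservative peaks (%, bars from 0) that hold the 10 letters common to the pas-4 and rpn-5 peaks within 150 bp of the summit, by rank of signal (x axis, with the number of peaks in each class), exact or with up to 1 mismatch; numbers above the bars are peaks. The exact word is in 16 of the 50 strongest peaks, of which 2 are the pas-4 and rpn-5 peaks it was taken from, and in 0 of the 1146 peaks past rank 400.

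Promoters without a peak were described by their strongest candidate, the region of highest signal in the ranked list that compares the replicates. Any candidate in the promoter was found for 19 of the 33 members, 57.6%, against 56.5% of all protein-coding genes. Among genes with a candidate, 4.15% had a conservative peak over all genes, and 2 of 19 did among members. The irreproducible discovery rate (IDR) estimates, from the ranks in both replicates, the share of irreproducible regions among those ranked as highly, and the conservative peaks had −log10 values of at least 2.00. The values were 4.60 for pas-4 and 4.51 for rpn-5, and ranged from 0.157 to 1.85 for the other 17 members. The signals of these 17 ranged from 6.33 to 73.0 with a median of 42.8, against 397 for rpn-5, the weaker of the called peaks. Conservative peaks elsewhere had signals down to 2.006, so the gap describes these members and not the list. The call is itself made from the signals in both replicates, so this gap is a description.

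**Figure D3:**
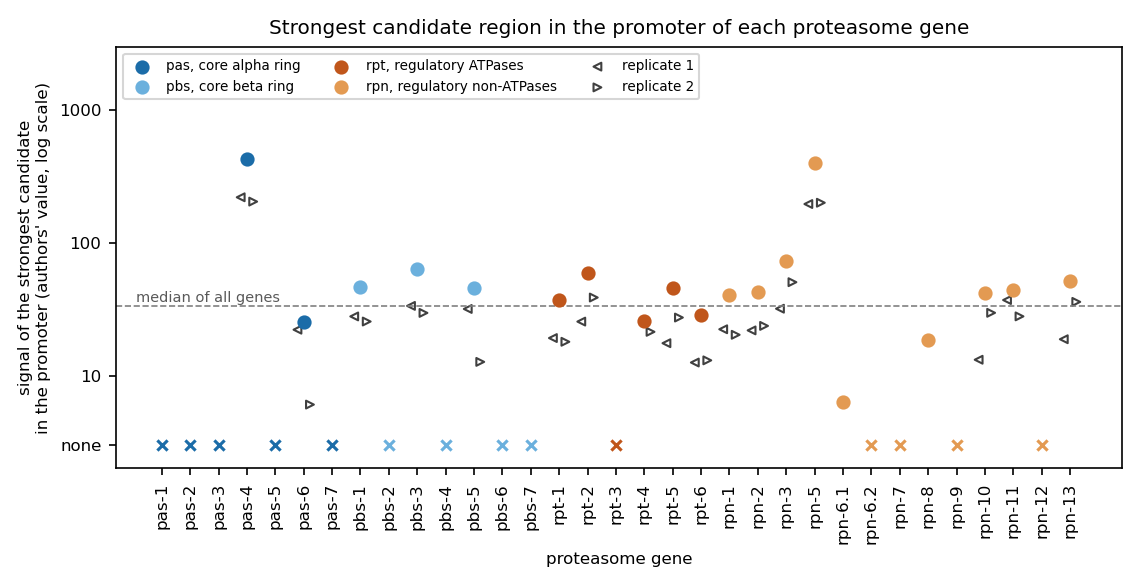
Signal of the strongest candidate with its summit in the promoter of each of the 33 proteasome genes (authors' value, log axis), as filled circles for the combined list and open triangles for the overlapping region in each replicate; crosses mark members with no candidate, and the dashed line is the median over all genes with a candidate. The pas-4 and rpn-5 circles, at 432 and 397, lie above all others, of which the highest is rpn-3 at 73.0.

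Within the core particle, 9 of 14 members had no candidate in the promoter: pas-1, pas-2, pas-3, pas-5, pas-7, pbs-2, pbs-4, pbs-6 and pbs-7. A single replicate's own ranked list held a region in the promoter of pas-5, with a signal of 24.8 in replicate 2, of pbs-2, with 6.503 in replicate 2, and of pbs-7, with 6.93 in replicate 1. The strongest candidate below the threshold was that of pbs-3, a beta ring gene, with a signal of 63.8 in the combined list, 33.5 in replicate 1 and 29.7 in replicate 2 and a −log10 IDR of 1.33. Its summit lay 130 bp upstream of pbs-3 in the 3' UTR of ulp-2, a SUMO protease gene that ends 22 bp before pbs-3 on the same strand. The candidate of pbs-1 had a signal of 46.6, with 27.9 and 25.6 in replicates 1 and 2, in the 519 bp between it and its divergent neighbour K08D12.3. The replicate 2 region overlapped the candidate, but its summit lay 120 bp from that of the candidate and outside the promoter. The candidate of pbs-5 had a signal of 45.8, with 31.8 and 12.7 in the replicates, and that of pas-6 had 25.4, with 22.2 and 6.05. Their −log10 IDR values fell in the same order as their signals, with 0.954 at pbs-1, 0.367 at pbs-5 and 0.157 at pas-6.

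Within the regulatory particle, 5 of 19 members had no candidate: rpt-3, rpn-6.2, rpn-7, rpn-9 and rpn-12. Both replicates' own ranked lists did hold a region in the promoter of rpt-3, with signals of 24.3 and 23.4, and in that of rpn-6.2, with 14.4 and 9.18, while rpn-7 had a region of 3.94 in replicate 2 alone. The candidate of rpn-3, a lid subunit gene, came nearest to the threshold, with a −log10 IDR of 1.85 and a signal of 73.0 in the combined list, 31.9 in replicate 1 and 50.6 in replicate 2. Its summit lay 265 bp upstream of rpn-3, also in the promoter of the divergent chaperone gene hsp-110. The candidate of rpt-2, an ATPase gene of the base, had a signal of 58.9, with 25.5 and 38.8 in the replicates, and lay in a coding exon of aps-1. Its −log10 IDR was 1.20.

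At rpn-13, the gene of a ubiquitin receptor, the signal was 51.7, with 18.8 and 36.0 in the replicates. At rpt-5 it was 45.7, with 17.6 and 27.4. The candidate of rpn-11, whose product cleaves ubiquitin from substrates, had a signal of 44.1, with 37.1 and 28.0 in the replicates, and its −log10 IDR of 1.33 equalled that of pbs-3. The replicate summits lay 55 and 126 bp from that of the rpn-11 candidate, against 2 and 0 bp at pbs-3. The remaining 8 regulatory members ranged from 6.33 at rpn-6.1 to 42.8 at rpn-2. Of the 19 members with a candidate, 16 had an overlapping region in the ranked lists of both replicates.

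Fewer core than regulatory members had a candidate, while the strengths of the candidates overlapped. A candidate was found at 35.7% of core members (5 of 14) and 73.7% of regulatory members (14 of 19), against 56.5% of all genes. With 1000 bp upstream the shares were 78.6% and 94.7%, against 71.7% of all genes. Every core member had 1 annotated 5' end, while 8 regulatory members had more than 1, so more sequence was searched at those 8. With 500 bp upstream, the candidates of rpn-6.1 and rpt-4 lay inside the gene and counted only through an internal 5' end. Ranked among the 11284 genes with a candidate by the signal of the strongest, the median place, given as the percentage of those genes that rank lower, was 70.6 for all members, 74.1 for the 5 core members and 68.0 for the 14 regulatory ones. Without pas-4 and rpn-5 the median signals were 46.2 and 42.1, and both sets of places spanned a wide range, from 31.7 to 90.0 for 4 core and from 2.57 to 94.0 for 13 regulatory members. The differences between the particles were not tested, and a member enters the ranking only if it has a candidate. By family, a conservative peak was found at 1 of 7 pas, 0 of 7 pbs, 0 of 6 rpt and 1 of 13 rpn genes.

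The members lie on all chromosomes but X and were often arranged head to head with another gene. The nearest upstream protein-coding gene was transcribed in the opposite direction within 1000 bp for 20 of the 33 members, 60.6%, against 17.5% of all protein-coding genes. It was so for 9 of 14 core and 11 of 19 regulatory members. Among them rpn-12 lies 394 bp from rad-23, whose product carries ubiquitylated proteins to the proteasome, and rpn-1 lies 769 bp from ribo-1. Over all genes a conservative promoter peak was found at 5.34% of genes in this arrangement and at 1.70% of the others. Read beside this, 2 of the 20 divergent members and 0 of the 13 others had a peak. Another 8 members followed a same-strand gene within 500 bp, 24.2% against 18.1% of all genes, and 0 of them had a peak in their own promoter, against 2.07% of all genes in this arrangement.

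With peaks outside the promoters included, a conservative summit lay within 5000 bp of a 5' end for 13 of the 33 members, 39.4%, against 14.4% of 19973 nuclear protein-coding genes, and the median distance was 12815 bp against 27345 bp. The share was 7 of 14 in the core and 6 of 19 in the regulatory particle, and local gene density was not taken into account. Several of these peaks lay closer to another gene. The summit 1121 bp from pas-3 was 16 bp upstream of chp-1, that 1372 bp from pbs-2 was 113 bp upstream of tba-2, a tubulin gene, and that 1493 bp from pbs-1 was 24 bp upstream of rpi-2. The peak 1167 bp upstream of pas-5, with a signal of 150, had that of pas-5 as its nearest 5' end among protein-coding genes. A small RNA gene, F25H2.15, lay within 500 bp of the weaker candidate 706 bp upstream of pas-5. Its distance from the peak was not measured. Counting only the peak nearest to each member, the strongest within 5000 bp but outside the member's promoter was that 3518 bp upstream of rpn-11, with a signal of 424 and rank 34, which lay 2568 bp upstream of K07D4.2. The farthest member was rpt-4, 128492 bp from the nearest summit.

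**Figure D4:**
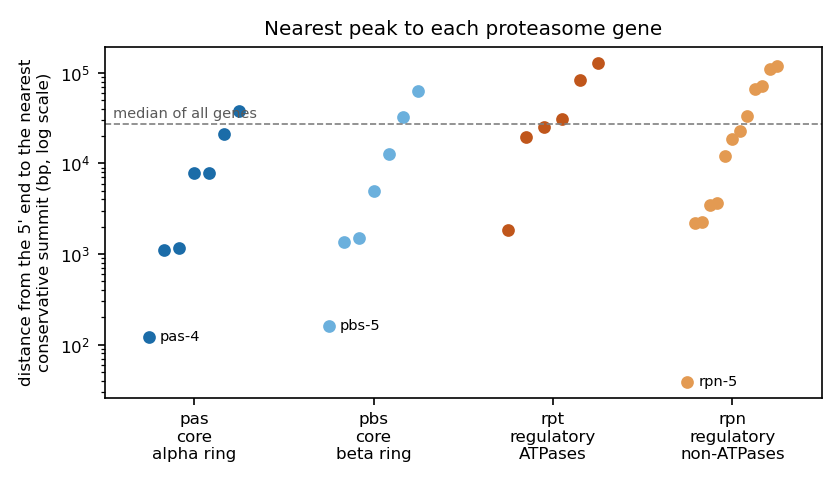
Distance (bp, log axis) from the annotated 5' end of each of the 33 proteasome genes to the nearest conservative summit, by subunit family, with the median over all nuclear protein-coding genes as a dashed line. The summits of pas-4, rpn-5 and pbs-5 lie at 120, 39 and 160 bp, and all other members are over 1000 bp away.

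Short words searched at the peaks were found upstream of 1 to 10 members. In the 300 bases upstream, on both strands, CGAACC was found at 1 of 33 members (3.47% of all genes), GCGCCA at 3 (4.98%), CGCGCC at 3 (4.88%), GGGCGG at 1 (7.93%), CACGTG at 1 (5.73%) and GAGAGA at 7 (21.6%). The shares of the members were 9.09% for GCGCCA and for CGCGCC, 21.2% for GAGAGA and 3.03% for the others. CGCGCC and GCGCCA can overlap each other, and GAGAGA can overlap itself, but each window was counted once per word. Of 2 words taken from the sites known for SKN-1 in worms, TGTCAT occurred at 10 members, 30.3% against 14.7% of all genes, and TATCAT at 4, 12.1% against 19.4%. TGTCAT was found upstream of 5 core and 5 regulatory members and of neither pas-4 nor rpn-5, while TATCAT was found upstream of rpn-5. Within 150 bp of the summit, TGTCAT occurred in 11.9% of conservative peaks and TATCAT in 10.3%. The shares were 21.2% for CGAACC, 15.1% for GCGCCA, 13.6% for CGCGCC, 12.8% for GGGCGG, 8.6% for CACGTG and 26.6% for GAGAGA. Of all these words, the rpn-5 peak held GAGAGA alone and the pas-4 peak held none.

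Other genes of the ubiquitin and proteasome pathway were taken from a list of 70 genes, drawn up by hand and not from a pathway annotation, that holds ubiquitin, conjugating enzymes, ligases, shuttles, deubiquitinases and the signalosome, with 1 further symbol left unmatched. A conservative promoter peak was found at 4 of them, 5.71%, against 2.34% of all genes. The list was drawn up with earlier results of these data known, so its share is a description and no test of the difference was made. The peak of eel-1, a HECT-type ubiquitin ligase gene, had a signal of 3151, with 1762 and 1412 in the replicates, and was the strongest of the conservative list. That of cdc-48.1, whose product extracts ubiquitylated proteins from complexes, had 336, with 156 and 169.8 in the replicates, 153 bp upstream. That of wwp-1, another HECT-type ligase gene, had 222, with 103 and 123, and that of ubc-6, a conjugating enzyme gene, had 222, with 119 and 98.2. The ubc-6 summit also lay in the promoter of aka-1, so that peak cannot be assigned to ubc-6 alone. All 4 were also found in each replicate's own list. None of the 6 csn genes of the signalosome, a complex whose subunits resemble those of the proteasome lid, had a peak, and 1 of 21 ubc genes did. Beside these, 2 of 8 cct chaperonin genes and 34 of 78 rpl and rps genes had a conservative promoter peak.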

How the data were processed

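ChIP-seq peak lists of 2 biological replicates were analysed. Per the deposited README, the authors' lists are on ce11 and derive from alignments and 1 further file. The aligner, the peak caller and its thresholds are not stated. The deposited signal is the authors' value per region, the deposited score is a scaled IDR score and is not reported, and the deposited −log10 values are of the global IDR, by the column order of the IDR format. Of the combined ranked lists, the list that holds all 1546 conservative peaks was used.

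Summits were compared with the 5' ends of all transcripts of Ensembl release 115. All 33 members overlapped the RefSeq gene of the same symbol (26 with the same start and end), and 0 peaks passed a chromosome end, so RefSeq sequence was read at the same coordinates. Replicate signals come from the region of each replicate's own ranked list that overlaps the candidate with the nearest summit. With 1 group and no control samples analysed here, no groups were compared, and shares stand beside those of all genes. Each gene with a peak and the strongest other candidates were named. The members, lists, words and alternatives were chosen with earlier results of these data known, and the word shared by the pas-4 and rpn-5 peaks was found in them. Promoter calling was tested on simulated summits. Python 3.11.15, numpy 2.4.6, pandas 2.3.3 and matplotlib 3.10.9 were used.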

Additional observations from a re-analysis of the deposited data

How the results depend on the processing

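The counts of 2 proteasome genes, 1 core gene, 1 regulatory gene and 4 pathway genes stayed within 1.5 times of themselves under the 8 alternatives run, with 1 exception: by any overlap of the peak, core genes with a promoter peak were 2, since the peak inside pbs-5 reaches into its promoter. Several of these alternatives could not have removed the calls of pas-4 and rpn-5. The median place of the members' strongest candidate, 70.6, was 60.4 with 1000 bp upstream, 61.5 with genes without a candidate kept below all others, and 61.5 to 66.7 in each replicate alone, so it stayed above 50 in all of them. These shifts exceeded the standard deviation of the 2 replicate medians, 3.64, and the cause was not tested. That value rests on 2 of the same settings, so it does not measure the spread of the shifts. No paired analysis was possible because there is 1 group and no test. Read depth is unknown, and the control library was not analysed.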
